A study of Mus musculus with 24 samples.

Results

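The AP-1 factors are a family of basic leucine zipper (bZIP) transcription factors, and 8 genes of the family were described here: Atf3, Jun, Junb, Jund, Fos, Fosb, Fosl1 and Fosl2. They were chosen by name. Each non-control probe whose gene name on the array was one of these symbols was taken, which gave 10 probes for the 8 genes, of 41174 probes and 27398 gene names on the array. Junb and Fosl2 had 2 probes each and the other genes had 1. Gene expression was profiled in L4 and L5 dorsal root ganglia (DRGs), which hold the cell bodies of the sensory neurons of the sciatic nerve, from adult male C57BL/6J mice. WT mice and Nfil3 KO mice, which lack the bZIP repressor NFIL3 in every cell because loxP-flanked Nfil3 was recombined in the germ line, were taken at day 2 or day 5 after a sciatic nerve lesion in which the nerve ends were rejoined. Control DRGs (labelled day 0) came from the non-injured side, so they were from operated animals, and the labels do not tie a control to the lesioned DRG of its animal. There were 4 samples in each of 6 groups, named WT control, WT day 2, WT day 5, KO control, KO day 2 and KO day 5, hybridized as 24 single-colour channels on 12 arrays of 3 slides.

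AP-1 proteins bind DNA as dimers. Jun proteins pair with themselves, with Fos proteins or with ATF proteins, whereas Fos proteins need a Jun partner. c-Jun is activated by Jun N-terminal kinases (JNK) that are carried back from the site of axon injury, and Jun and Atf3 are among the best known genes of injured sensory neurons, where both have been linked to axon regrowth. Fos, Fosb, Fosl1, Junb and Jund differ in how quickly they respond to stimuli, and JunD is made in most cells at rest. The question for these genes was how each of them responded to the lesion, how the response changed between day 2 and day 5, and whether it differed in mice without NFIL3.

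The labels call the samples DRG neurons, but the tissue was whole ganglion. Markers of neurons (summed linear intensity of 7 genes 284400 to 363500), Schwann cells (5 genes, 61910 to 194400), satellite glia (4 genes, 28600 to 46180) and fibroblasts were all measured in every group. The T cell markers were dim (5 genes, 191.8 to 306.3). Of these, Cd3g was not above background in any sample of 5 of the 6 groups, and each of the others was in some sample of every group. Macrophage markers moved with the lesion: 3 of 7 were higher at day 2 and 7 of 7 at day 5 in each genotype. Of the 4 satellite glia markers, 2 were called higher and 1 lower at day 2 in each genotype. At day 5, 1 was called higher and 0 lower. Of all genes, 5.16 to 6.43% were called higher in these comparisons and 6.06 to 7.49% lower. The summed intensity of the macrophage markers went from 1293 to 2254 in WT control to 5088 to 6518 in WT day 5. Of the neuronal markers, 3 of 7 were lower at day 5 in WT mice, beside 7.49% of all genes, and Tubb3 was higher. Muscle and red blood cell markers were called in no comparison but varied between samples, the muscle sum (3 genes) from 108 to 8990 within KO day 5. In whole tissue, more cells of a type and more RNA per cell cannot be told apart, and the part of these markers in the results for the AP-1 genes was not tested. Nfil3 itself checked the genotypes. Its log2 intensity (probe A_52_P500027) was 8.66 ± 0.26 (SD, n = 4) in WT control, 10.52 ± 0.18 in WT day 2 and 10.92 ± 0.19 in WT day 5, against 4.67 ± 2.03, 4.67 ± 1.39 and 4.42 ± 1.53 in the KO groups. The highest KO sample was KO control replicate 4 with 7.59; its title gives a control and its day label gives day 5. Where the probes lie relative to the deleted part is not given in the sources used here.

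The lesion raised 6 of the 8 genes in each genotype and at each day. Atf3, Fosl1, Jun, Fosl2, Fos and Junb were higher than in the control DRGs of the same genotype in all 4 comparisons (limma, adjusted p under 0.05 over all probes), and no member was lower. Of all 27398 genes, 5.16% were called higher at day 2 in WT mice, 6.43% at day 5 in WT mice, 5.54% at day 2 in KO mice and 6.14% at day 5 in KO mice, and 6.06%, 7.49%, 6.4% and 6.7% were called lower in that order. The median log2 difference of the 8 genes was 1.01, 1.09, 1.29 and 1.06 in that order, beside -0.03, -0.03, -0.01 and -0.03 over all genes. In the lesion F test, which asks whether day 2 or day 5 differs from control with both genotypes averaged, 7 of the 8 were called, Fosb being the exception, where 26.3% of all genes were called. In 5 of the 8 (Atf3, Jun, Fos, Fosl1 and Fosl2) each of the 16 lesioned samples lay above each of the 8 controls, which held for 2.96% of all genes. Within a genotype, the day 2 and day 5 comparisons share their control samples.

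**Figure D1:**
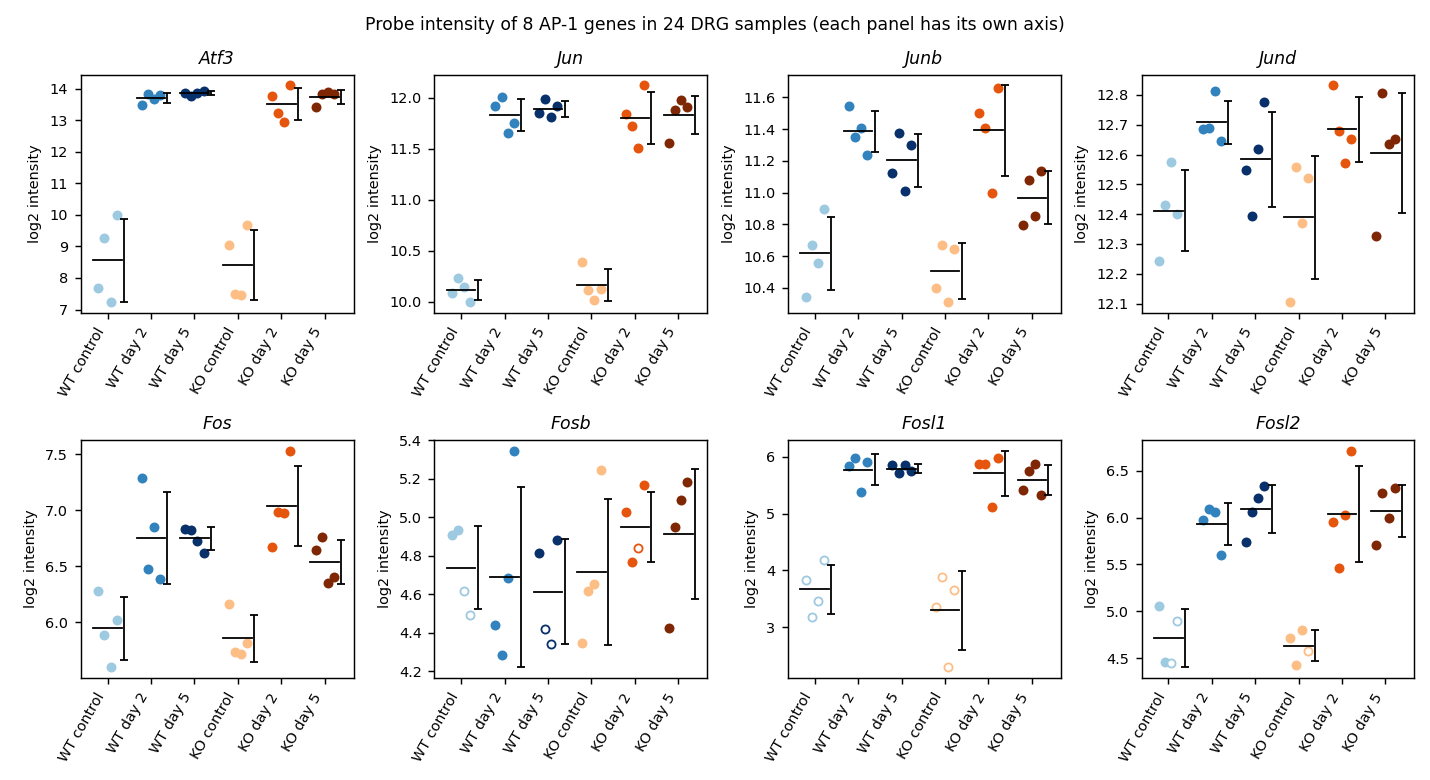
Normalized log2 intensity of the 8 AP-1 genes (1 probe each) in the 4 samples of each group; horizontal bars are group means, error bars the SD, and open points were not well above background. Atf3, Jun, Fos, Fosl1 and Fosl2 separate the 16 lesioned samples from the 8 controls, the Atf3 controls lie in 2 clusters, and Fosb shows no separation.

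Atf3 encodes a factor that pairs with Jun proteins and is made little in uninjured neurons. Its probe (A_52_P452689, mm9 chromosome 1, 192994547 to 192994606, minus strand) had log2 intensities of 7.69, 9.28, 7.25 and 10.004 in the WT controls. The 4 WT samples at day 2 had 13.49, 13.83, 13.68 and 13.78, and those at day 5 had 13.86, 13.76, 13.87 and 13.93. In KO mice the controls had 9.04, 7.502, 7.46 and 9.66, the day 2 samples 13.76, 13.24, 12.94 and 14.10, and the day 5 samples 13.40, 13.81, 13.90 and 13.82. Every lesioned sample was above every control, and the controls were far more scattered than the lesioned samples. The rise was 35.2-fold (95% CI 17.0 to 72.9) at day 2 and 39.4-fold (19.0 to 81.6) at day 5 in WT mice, and 34.2-fold and 39.9-fold in KO mice. As a log2 difference this was 5.14 ± 0.50 (SE, adjusted p = 6.74e-07, limma) and 5.30 ± 0.50 (adjusted p = 2.94e-07) in WT mice. Among the 27398 genes it was the 2nd highest rise at day 2 and the 5th at day 5 in WT mice, and the 4th and the 6th in KO mice.

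The scatter of the Atf3 controls followed the layout of the arrays. The 4 controls that shared an array with a lesioned sample (WT control replicates 2 and 4, KO control replicates 1 and 4) had 9.04 to 10.004, mean 9.49. The 4 controls that shared an array with another control had 7.25 to 7.69, mean 7.47. Jun showed no such split, with means of 10.19 and 10.09. Of all genes, 1.28% had the 4 controls with a lesioned partner all above the other 4 and 1.23% had them all below, and of the 48 genes higher by over 3 on the log2 scale at WT day 2, 27.1% had them all above. Without those 4 controls the Atf3 rise was 6.22 and 6.39 in WT mice and 6.03 and 6.25 in KO mice on the log2 scale, so its size, but not its call, depended on them. What the array partner did to these values was not tested.

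**Figure D2:**
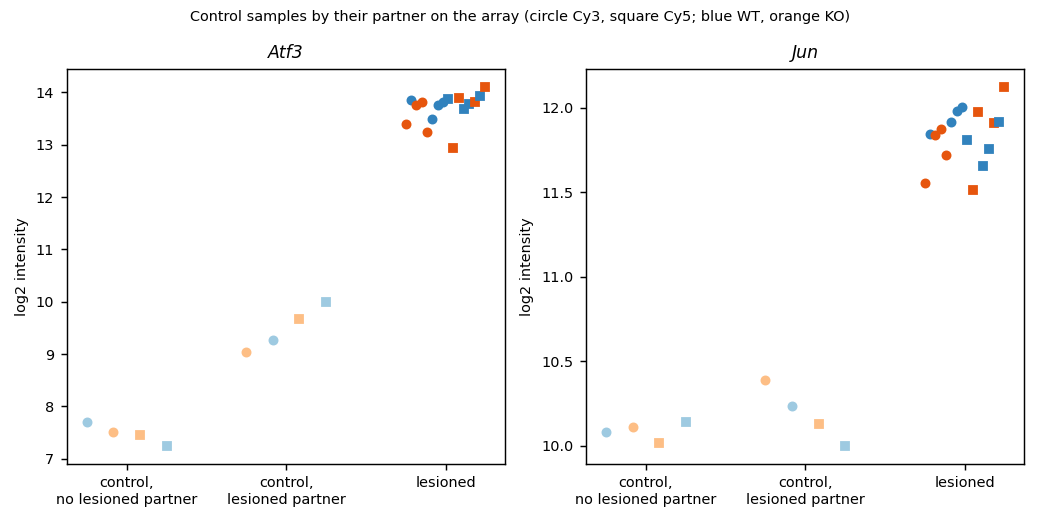
Log2 intensity of Atf3 and Jun in the controls without a lesioned sample on their array (4 samples), the controls with one (4 samples) and the lesioned samples (16); each point is 1 sample. The Atf3 controls with a lesioned partner (9.04 to 10.004) lie above the others (7.25 to 7.69), and those of Jun do not.

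Jun encodes c-Jun, the family member with the strongest activity as an activator. Its probe (A_51_P325914, mm9 chromosome 4, 94715864 to 94715923, minus strand) was spotted 10 times on each array, and the spots were averaged. The WT controls had log2 intensities of 10.08, 10.23, 10.14 and 9.999. The WT day 2 samples had 11.92, 12.005, 11.66 and 11.76, and the day 5 samples 11.85, 11.98, 11.81 and 11.92. The KO controls had 10.39, 10.11, 10.02 and 10.13, the KO day 2 samples 11.84, 11.72, 11.51 and 12.12, and the KO day 5 samples 11.55, 11.88, 11.98 and 11.91. The groups did not overlap, and the gap between the lowest lesioned sample and the highest control exceeded 1 on the log2 scale. Jun rose 3.29-fold (2.75 to 3.93, adjusted p = 8.88e-09, limma) at day 2 and 3.42-fold (2.86 to 4.09) at day 5 in WT mice, and 3.11-fold and 3.18-fold in KO mice. Its rise was smaller than that of Atf3, but its F statistic was larger (255 against 144) because its samples scattered less.

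Junb and Jund are the other Jun genes. JunB is an early response factor that can restrain c-Jun, and its probe with the higher signal (A_51_P159201, mm9 chromosome 8) went from 10.34 to 10.90 in WT control to 11.24 to 11.54 at day 2 and 11.01 to 11.37 at day 5. In KO mice it went from 10.31 to 10.67 in control to 10.995 to 11.66 at day 2 and 10.80 to 11.14 at day 5. The lesioned groups stood above the controls of their own genotype, and the KO day 5 group was the lowest of the lesioned groups. The rises were 1.70-fold and 1.5004-fold in WT mice and 1.85-fold and 1.38-fold in KO mice, the last with an adjusted p of 0.0408 (limma) that was lost without the 4 controls with a lesioned partner (adjusted p = 0.143) or without any of KO control replicates 1 and 3 and KO day 5 replicates 2, 3 and 4. The Jund probe had group means of 12.41 (WT control), 12.71 (WT day 2) and 12.58 (WT day 5), and it was called in none of the 4 comparisons, with log2 differences of 0.17 to 0.30. With the genotypes averaged, its day 2 difference was 0.30 ± 0.08 (adjusted p = 0.0125, limma, where 9.39% of all genes were called higher) and its F test gave an adjusted p of 0.0278. Without the 4 controls with a lesioned partner these became 0.103 and 0.199, and the F test call was also lost without WT control replicate 1, KO control replicate 1 or 3 or KO day 2 replicate 1 (adjusted p = 0.0508 to 0.0685).

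Fos is the classical immediate early gene, made within minutes of neuronal activity and usually short-lived, and here it was measured days after the lesion. Its probe (A_52_P262219, mm9 chromosome 12) was dim but well above background in all 24 samples. WT controls had 6.28, 5.89, 5.60 and 6.02, WT day 2 samples 7.28, 6.48, 6.85 and 6.39, and WT day 5 samples 6.84, 6.83, 6.73 and 6.62. KO controls had 6.17, 5.74, 5.72 and 5.82, KO day 2 samples 6.67, 6.98, 6.97 and 7.53, and KO day 5 samples 6.64, 6.77, 6.36 and 6.403. The lowest lesioned sample (6.36) and the highest control (6.28) were close together, and KO day 2 held the highest value. Fos rose 1.74-fold at both days in WT mice (adjusted p = 0.0108 and 0.0082, limma) and 2.27-fold and 1.60-fold in KO mice (adjusted p = 0.000408 and 0.0262). Without the 4 controls with a lesioned partner, the WT calls and the KO day 5 call were lost (adjusted p = 0.0877, 0.0734 and 0.0777) at log2 differences of 0.81, 0.81 and 0.81, and the KO day 5 call was also lost without any of KO control replicates 2, 3 and 4 and KO day 5 replicates 1 and 2 (adjusted p = 0.0585 to 0.0863).

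Fosb, whose product is best known for building up in neurons with repeated stimulation, was called in no comparison. Its group means lay between 4.61 and 4.95, it was well above background in 19 of 24 samples, and its log2 differences from control were -0.05 (95% CI -0.52 to 0.42) and -0.12 (-0.59 to 0.35) in WT mice and 0.24 and 0.20 in KO mice. The upper limit in KO mice was a 1.63-fold rise, at day 2.

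Fosl1 encodes Fra-1, a Fos protein that lacks a strong activation domain and is induced late after stimulation. Its probe (A_51_P308796, mm9 chromosome 19) was well above background in 16 of 16 lesioned samples and in 0 of 8 controls. The controls had 2.30 to 4.18, the WT lesioned samples 5.38 to 5.98 and the KO lesioned samples 5.11 to 5.97. Controls were held at the lowest signal of a probe well above background on their array, or at their own signal where that was higher. With these control values the Fosl1 group means differed 3.8-fold at day 2 and 3.85-fold at day 5 in WT mice. In KO mice they differed 4.56-fold and 4.21-fold. These are differences of means under the background correction used and not lower limits. The own signal was used for 2 WT and 3 KO controls, although none was well above background. The held value is therefore no detection limit. Without held values the 95% CI was 2.88 to 6.46-fold at day 2 and 2.92 to 6.55-fold at day 5 in WT mice. In KO mice it was 3.56 to 7.97-fold and 3.28 to 7.35-fold. The measured difference at WT day 2 had an adjusted p of 3.61e-05 (limma). The measured size depended on the background correction: the log2 difference at WT day 2 was 2.11 with the correction used, 0.76 without one, 0.63 with the normexp correction and 3.44 with the processed signals of the scanner software, and Fosl1 passed the test each time. Across the same settings the WT day 2 difference ran from 0.45 to 0.93 for Fos and from 0.47 to 1.58 for Fosl2.

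Fosl2 encodes Fra-2, the other Fos-related antigen, and its 2 probes disagreed. The probe with the higher signal (A_52_P484903, mm9 chromosome 5, 32459624 to 32459683) had 5.06, 4.46, 4.45 and 4.89 in WT control, 5.97, 6.09, 6.06 and 5.60 in WT day 2 and 5.74, 6.07, 6.21 and 6.33 in WT day 5. In KO mice the controls had 4.43 to 4.802 and the lesioned samples 5.46 to 6.72. Each lesioned sample was above each control, and the rise was 2.33-fold and 2.59-fold in WT mice (adjusted p = 0.000849 and 0.00018, limma) and 2.65-fold and 2.71-fold in KO mice. The second probe (A_51_P507242) lies 4536 bases before the first on the plus strand and had group means of 4.59 to 5.06. It was called in no comparison, with log2 differences of -0.13 and -0.23 in WT mice and 0.35 and 0.38 in KO mice. The lesion changed the log2 difference between the 2 probes by 1.27 (16 lesioned against 8 control samples, two-sided exact permutation test, p = 1.5e-05, 735471 splits). With both probes averaged before the fit, Fosl2 stayed called in all 4 comparisons. The 2 Junb probes start 38 bases apart, so they overlap, and their lesion responses of 0.68 and 0.51 on the log2 scale differed by 0.16 (two-sided exact permutation test, p = 0.0769); the second was called in KO day 2 (adjusted p = 0.0132) and not in the other 3 comparisons.

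**Figure D3:**
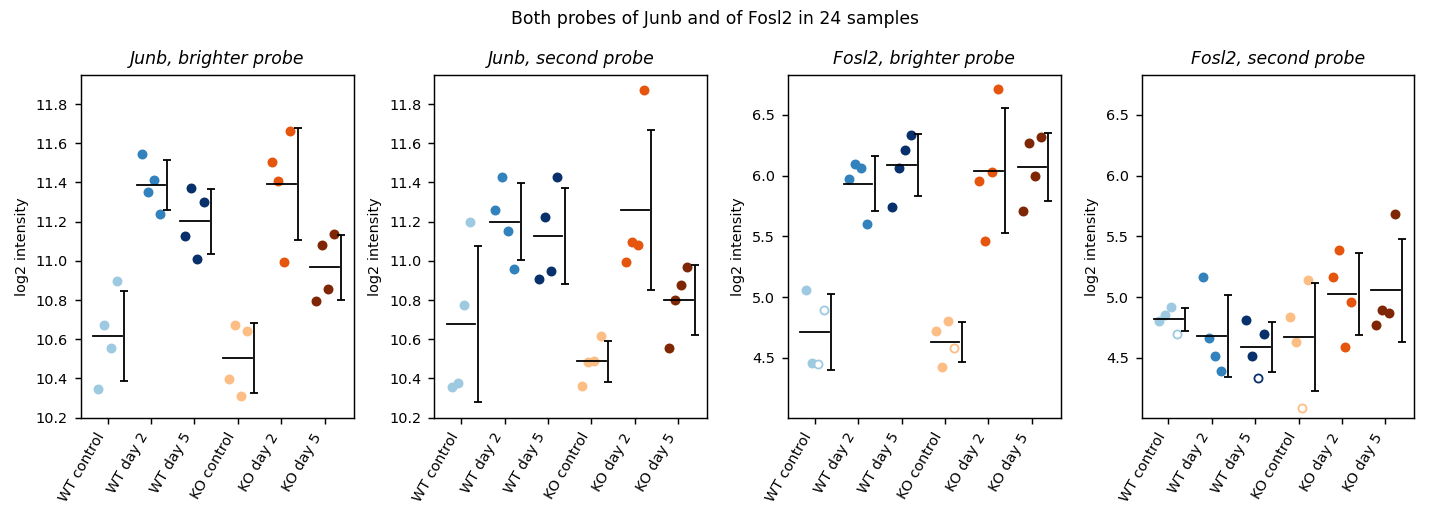
Log2 intensity of both probes of Junb and of Fosl2 in the 4 samples of each group, with group means and SD; open points were not well above background, and the 2 panels of a gene share an axis range. The probe of Fosl2 with the higher signal rises after the lesion and the second stays between 4.59 and 5.06 in its group means. Group means of both Junb probes rise, but the second Junb probe was called only in KO day 2.

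Ordered by the rise at WT day 2, the sequence was Atf3, Jun, Fosl2, Fos, Junb, Jund and Fosb, with Fosl1 given no rank because its controls were not well above background. The interval of Atf3 (log2 4.09 to 6.19) lay clear of that of Jun (1.46 to 1.98). The intervals of Jun and Fosl2 (0.77 to 1.67), of Fosl2 and Fos (0.39 to 1.21) and of Fos and Junb (0.47 to 1.07) overlapped, so the order of these genes is not resolved between neighbours. Within each slide and each dye, the lesioned mean stayed above the control mean for the 7 genes called in the F test. The mean differences were 4.21 to 5.57 on the log2 scale for Atf3, 1.58 to 1.90 for Jun and 0.13 to 0.30 for Jund. Single samples could overlap. Within Cy5, Junb was 10.86 in KO day 5 replicate 3 and 10.90 in WT control replicate 4.

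**Figure D4:**
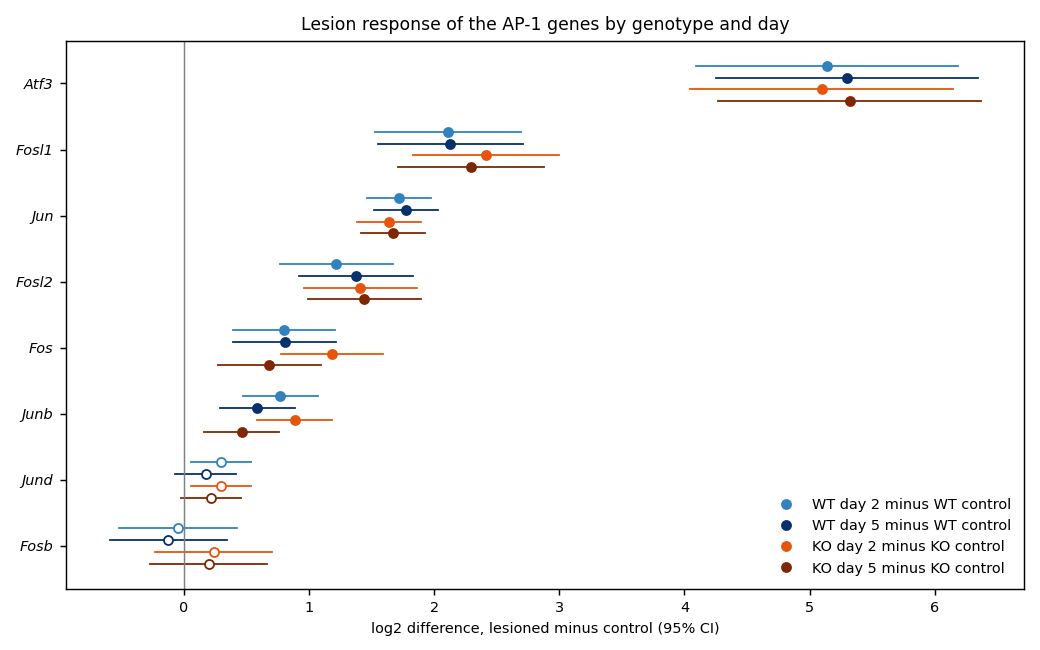
Log2 difference between lesioned and control DRGs for the 8 AP-1 genes, with 95% CI, in WT mice (blue) and KO mice (orange) at day 2 and day 5; filled points passed an adjusted p of 0.05 (limma) and open points did not. Atf3 lies at 5.10 to 5.32, Fosl1, Jun and Fosl2 at 1.22 to 2.41, and Jund and Fosb at -0.12 to 0.30.

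The response did not differ detectably between the days. None of the 8 genes passed the test of day 5 against day 2 in either genotype (limma, 0 of 8 called; 0.745% of all genes were called in WT mice and 0.975% in KO mice). In WT mice 0 of 8 had an unadjusted p under 0.05. In KO mice 2 of 8 did, with both lower at day 5: Junb by -0.42 ± 0.14 (adjusted p = 0.238) and Fos by -0.50 ± 0.20 (adjusted p = 0.357). Atf3 and Jun differed between the days by 0.16 and 0.06 in WT mice and by 0.22 and 0.03 in KO mice. The standard error was 0.50 for Atf3 and 0.12 for Jun. That of Atf3 includes the scatter of its controls, and without the 4 controls with a lesioned partner it was 0.20.

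The genotypes did not differ detectably either. KO minus WT was called for 0 of the 8 genes in control DRGs and at either day (limma; each adjusted p rounds to 1, and 0 of 8 had an unadjusted p under 0.05). Of all genes, 0% were called in control, 0.0146% at day 2 and 0.0109% at day 5. The time*genotype interaction called 0 of 8 genes and 0% of all genes, 2.11% of which had an unadjusted p under 0.05; the lowest unadjusted p of a member was 0.197, for Fos. Among the main probes the largest difference at day 5 was 0.30 for Fosb, and the second Fosl2 probe had 0.47 (95% CI -0.01 to 0.95), also not called. The precision varied. For Jun the difference at day 5 was -0.06 (95% CI -0.32 to 0.20), or a KO level of 0.80 to 1.15 times the WT level. For Atf3 it was -0.12 (-1.17 to 0.93), or 0.44 to 1.90 times. The Atf3 interval pools the spread of all groups, with an SD of 1.30 in WT control, 1.11 in KO control, 0.07 in WT day 5 and 0.22 in KO day 5. Without the 4 controls with a lesioned partner, the standard error of this Atf3 difference was 0.20 in place of 0.50. The 95% limits are not adjusted for the number of probes, whereas the calls are. Effects within the limits, and some beyond them, could therefore go uncalled with 4 samples a group. The deleted gene Nfil3 was called in KO minus WT at day 2 and day 5, but not in control DRGs or in the interaction. Its log2 difference in control DRGs was -3.22 (adjusted p = 0.253, limma) for probe A_51_P111492 and -3.98 for A_52_P500027, also not called.

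**Figure D5:**
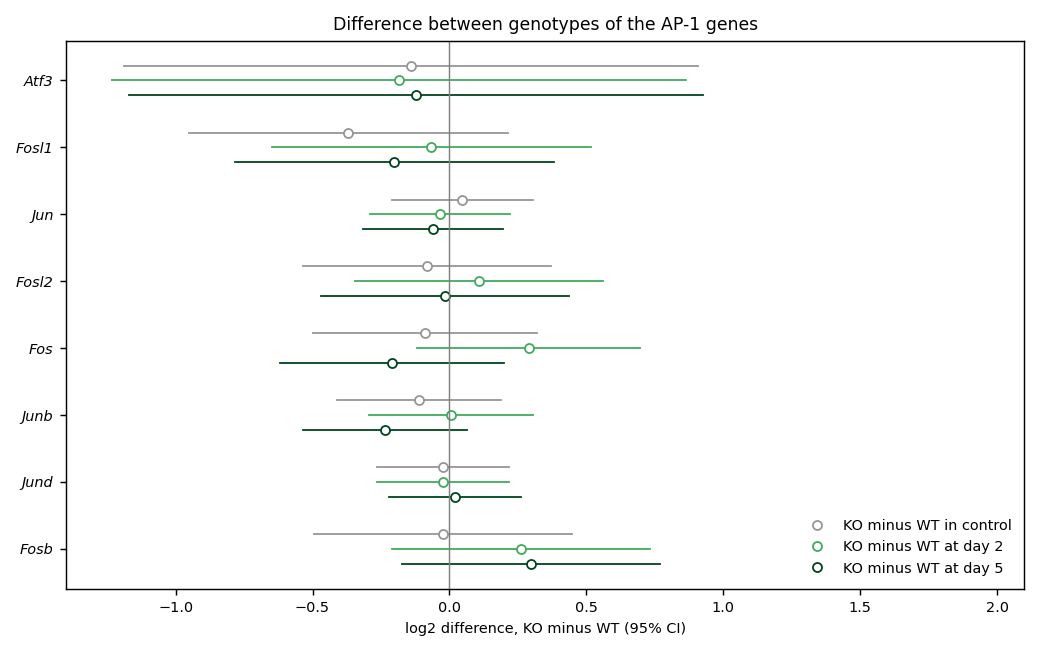
Log2 difference between KO and WT mice for the 8 AP-1 genes in control, day 2 and day 5 DRGs, with 95% CI; all points are open because none passed an adjusted p of 0.05 (limma). All intervals cross 0, and those of Atf3 are the widest.

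The proximal promoters of the family were compared. RefSeq entries (GRCm38.p6) were found for 7 of the 8 genes, with none for Fosl1. The 7 include Jund and Fosb, which were not called in any lesion comparison within a genotype. The 250 bases before the start are shown for Atf3, Jun and Fos, the genes with a motif match, at chr1:191183334-191183583 (minus strand), chr4:95052223-95052472 (minus strand) and chr12:85473640-85473889 (plus strand), with matches in capitals.
Atf3: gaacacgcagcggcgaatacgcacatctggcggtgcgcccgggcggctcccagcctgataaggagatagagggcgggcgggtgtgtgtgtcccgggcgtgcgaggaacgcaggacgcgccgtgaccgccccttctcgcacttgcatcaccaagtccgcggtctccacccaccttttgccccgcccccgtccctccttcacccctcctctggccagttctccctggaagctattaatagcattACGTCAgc
Jun: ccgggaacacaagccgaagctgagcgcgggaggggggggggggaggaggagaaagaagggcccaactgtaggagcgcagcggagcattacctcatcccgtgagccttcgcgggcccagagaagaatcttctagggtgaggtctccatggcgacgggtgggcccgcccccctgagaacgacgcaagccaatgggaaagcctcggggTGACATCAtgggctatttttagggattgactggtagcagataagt
Fos: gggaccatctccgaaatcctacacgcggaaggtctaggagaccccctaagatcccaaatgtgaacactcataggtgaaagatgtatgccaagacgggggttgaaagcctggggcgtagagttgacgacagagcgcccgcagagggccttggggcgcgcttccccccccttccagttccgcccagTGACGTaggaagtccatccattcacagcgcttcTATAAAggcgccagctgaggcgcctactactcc
On both strands, the AP-1 site TGANTCA was in 0 of the 7 windows (6.75% of 32851 promoter windows of this length), the cAMP response element TGACGTCA in 0 (1.55%) and the NFIL3 and C/EBP type site TTANGTAA in 0 (2.06%). TATAAA was in 1, Fos (12.4%). With shorter or looser forms added after the sequences were seen, TGACGT, which is part of TGACGTCA, was in 2, Atf3 and Fos (6.47%), and TGACNTCA, which includes TGACGTCA, was in 1, Jun (7.49%). The Atf3 match ACGTCA, on the opposite strand, begins 8 bases before the start, the Jun match TGACATCA begins 45 bases before it and the Fos match TGACGT 66 bases before it. These matches are descriptions of letters in this window.

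Jun and Atf3 had the largest F statistics of the 8 genes, and the genes whose intensities were most like theirs over the 24 samples were sought among those well above background in at least 12 samples. For Jun these were Sox11 (Pearson r = 0.993), a transcription factor of growing neurons, Adam8, 2010002N04Rik, Gfra1, which encodes a receptor for glial cell line-derived neurotrophic factor, and Sema6a. For Atf3 they were Gm6460 (r = 0.993), Gal (0.986), which encodes the neuropeptide galanin, U07661, Nkain1 and Gpr151. The 5 genes of Jun rose by 1.54 to 3.22 on the log2 scale at WT day 5 and those of Atf3 by 2.12 to 5.04. These correlations mostly restate that lesioned and control samples form 2 clusters and are given as a measure of likeness only.

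Genes reported in the literature to depend on Jun, Atf3 or AP-1 sites rose most among the 4 lists examined. The lists were chosen with earlier results of these data known, so this order is a description and no test of AP-1 activity. Of 9 genes, 7 were higher at day 2 and 6 at day 5 in each genotype, beside 5.16 to 6.43% of all genes. None of the 9 was lower. The median log2 difference was 2.09 and 2.11 in WT mice and 1.83 and 1.80 in KO mice. Sprr1a, which encodes a cornified envelope protein found in regrowing axons, rose by 7.24 ± 1.11 (adjusted p = 0.000134, limma) at WT day 5, Gal by 4.47 ± 0.30 and Timp1, an inhibitor of matrix metalloproteinases, by 2.58 ± 0.20. Sprr1a had the same split as Atf3 in the controls, with a mean of 10.14 for those with a lesioned partner and 5.77 for the others. Hspb1, Itga7 and Plaur were also higher at both days and Cd44 at day 2 (0.78 in WT, 0.88 in KO), whereas Ccnd1, a cell cycle cyclin, and Mmp3, which was well above background in 8 of 24 samples, were not called.

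Other bZIP genes that can pair with AP-1 proteins moved less. Of 13 genes, 4 were higher at day 2 and 4 at day 5 in WT mice, and 5 and 5 in KO mice. Of all genes, 5.16 to 6.43% were called higher in these comparisons. The median log2 difference of the 13 genes was 0.33, 0.47, 0.00 and 0.28. At WT day 5 the largest were Batf (1.29 ± 0.14) and Batf3 (1.19 ± 0.25), partners of Jun proteins in immune cells, and Atf4 (0.84 ± 0.13), a factor of the amino acid and unfolded protein stress responses. Atf7 was the 1 gene called lower, in KO day 2 (-0.37, adjusted p = 0.04, limma). Batf was also called higher at WT day 2 (0.91 ± 0.14), when 3 of 7 macrophage markers were called higher. At WT day 5 all 7 macrophage markers were called higher. The part of these markers in the Batf values was not tested.

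Genes of the JNK pathway, which phosphorylates c-Jun and ATF2, were mostly not called. Of 17 genes, 1 was higher and 2 lower at day 2 in each genotype, and at day 5 none was higher and 4 were lower in WT mice and 3 in KO mice. Over all genes 5.16% were higher and 6.06% lower at WT day 2, and 5.54% and 6.4% at KO day 2. The day 2 counts are therefore no result about this pathway. At day 5 the shares were 6.43% and 7.49% in WT mice and 6.14% and 6.7% in KO mice. The median log2 difference was -0.24, -0.22, -0.22 and -0.27. At WT day 5 the kinases Map3k5 (-0.67 ± 0.18), Map2k4 (-0.55 ± 0.11) and Map3k13 (-0.54 ± 0.16) were lower. The fourth was Map3k12 (-0.42, adjusted p = 0.0441, limma), which encodes the axon injury kinase DLK. The gene called higher at day 2 was Dusp10, a phosphatase that acts on JNK (0.51 in WT, 0.57 in KO). Arrays measure RNA, not kinase activity. Of the 7 neuronal markers, 3 (Rbfox3, Snap25 and Nefh) were also called lower in each of the 4 comparisons and Tubb3 was called higher at day 5 in each genotype; their part in these values was not tested.

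The ERK and SRF pathway, which can induce Fos, and immediate early genes were listed with 17 genes. Their median log2 differences were 0.22 and 0.09 in WT mice and 0.10 and 0.10 in KO mice, and none was called lower. Of all genes, 5.16 to 6.43% were called higher in these comparisons. Of the 17, 4 were higher at both days in WT mice and 6 and 5 in KO mice. Those in WT mice were Elk3, an SRF partner (1.305 ± 0.10 at day 5), Dusp1, a phosphatase of MAP kinases (0.97 ± 0.13), Arc (0.81 ± 0.16) and Ier2 (0.55 ± 0.11). The immediate early gene Egr1 had a log2 difference of 0.03 ± 0.25 at WT day 5 and was not called. No gene of the 4 lists was called in KO minus WT at any time point.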

How the data were processed

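Expression was measured with Agilent 4x44K whole mouse genome arrays in 24 DRG samples. The deposited intensity values are the authors' scanner output of 12 arrays, read with Agilent Feature Extraction, with both colour channels used as single-colour samples (2 Cy3 and 2 Cy5 per group). No normalized values were used. As in the study's methods, mean foreground intensities were corrected with the Edwards method and quantile normalized over the 24 channels in limma 3.58.1 (R 4.3.3), then put on the log2 scale. Control spots (of 45018, 43379 were not controls) and outlier spots (0.106 to 0.835% per sample) were left out, and spots of a probe were averaged. Between 54.5 and 72.3% of probes were well above background per sample, and the correlation of a sample with its own group averaged 0.955 to 0.969. Levels of different probes are not comparable; the number of arrays limits precision.

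Group means were estimated for 41174 probes (lmFit, eBayes), and p-values were adjusted (Benjamini-Hochberg) over all probes; an adjusted p under 0.05 was called. Where a gene had several probes, the one with the highest mean signal stood for it. Samples are biological replicates per the labels. The main fit took the 2 channels of an array as independent. An alternative fit with array as a random term gave a correlation within arrays of 0.262. Replicate numbers were not used to pair samples in the main fit. Same-numbered pairs had a median correlation of deviations of 0.07 (-0.06 to 0.20), and other pairs -0.03 (-0.22 to 0.20). Of 24 samples, 11 correlated best with their own number. In each group the 2 lower numbers were Cy3 and the 2 higher were Cy5, so number goes with dye. The 8 genes, the 4 lists and the markers were chosen with earlier results of these data known. Named genes were all members, Nfil3, the 5 genes most like each of the 2 members with the largest F, and the 3 genes of each list with the largest absolute called difference at WT day 5; further genes were named after their values were seen. The sample titled KO control replicate 4 has day 5 in another label and was kept as a control. Alternatives covered background correction, foreground, normalization, filters, dye, slide, replicate and array terms, and leaving out samples; the fit was tested on simulated data. Mouse promoters were from RefSeq GRCm38.p6, and probe positions were those of the array files (mm9).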

Additional observations from a re-analysis of the deposited data

Results flagged for a closer look

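Of 60 sets of 4 samples (10 probes in 6 groups), 3 held a sample far from the other 3 by Dixon's criterion, and chance gives about 1 in 20. The second Junb probe had 11.87 in KO day 2 replicate 4, against 10.99 to 11.10 in the other 3, and the same sample was the highest of its group for the main probe of each gene but Jund. Without it, that probe's call in KO day 2 was lost (adjusted p = 0.0527, limma). Fosl1 had 5.11 in KO day 2 replicate 3, against 5.87 to 5.97, and this sample, which shared its array with a control, was also the lowest of its group for Atf3, Jun, Junb and Jund. The second Fosl2 probe had 5.68 in KO day 5 replicate 4, against 4.77 to 4.89. No explanation of these values was tested.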

How the results depend on the processing

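Across 38 alternatives (14 other settings and each of the 24 samples left out), the lesion F test called 6 to 7 of the 8 genes, WT day 2 called 5 to 7, WT day 5 called 5 to 6, KO day 2 called 6 to 7 and KO day 5 called 4 to 6. Day 5 against day 2, KO against WT and the interaction called 0 under each of them. Leaving out the 4 controls hybridized with a lesioned partner, which leaves 2 controls per genotype, gave 6, 5, 5, 6 and 4 in that order. Leaving out single samples gave 6 to 7 in the F test, 4 to 6 in KO day 5 (4 without KO day 5 replicate 2 or KO control replicate 3) and 6 in the other lesion comparisons. Jund was called at day 2 with the processed signals (adjusted p = 0.0486 in WT and 0.0436 in KO mice, limma), and Junb was not called in KO day 5 with its probes averaged (adjusted p = 0.132). The replicate block left the counts at 7 in the F test and 6 in each lesion comparison, and it changed no call of a gene's main probe. No called difference changed sign; of 3409 uncalled values, 165 did. Within slide 2 the Atf3 rise was 4.21 against 5.21 over all slides, and within slide 3 Jun rose by 1.90 against 1.70 and Fos by 1.16 against 0.87; the cause was not tested. Signal over background limits Fosl1, Fosl2 and Fosb, whose probes were well above background in 16, 21 and 19 of 24 samples.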
